A study of Mus musculus with 10 samples.

Results

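The transcriptional difference between embryos labelled *Dot1l*-cKO and their control littermates was examined within 1 litter, litter 1, which held 6 of the 10 sequenced mouse embryos. Members were taken by the sample labels, as the 3 embryos 2, 3 and 7 labelled *Dot1l*-cKO and the 3 controls 4, 5 and 9. The *Dot1l*-cKO embryos carried the genotype Wnt1cre2/+; Dot1l fl/fl and the controls +/+; Dot1l fl/fl, all at E12.5. All 6 embryos thus had 2 floxed *Dot1l* alleles, and within the litter only the cre transgene differed by design. PolyA RNA was taken from lumbar spinal cord on which the dorsal root ganglia had been left. The transgene sits at *E2f1* on chromosome 2 by its strain name, and no embryo lacked *Dot1l* without carrying it, so effects of the insertion and of the deletion cannot be told apart. In litter 2, which was used only for comparison, the 2 embryos labelled *Dot1l*-cKO had the same genotype, whereas the 2 controls carried only 1 floxed allele.

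DOT1L is the enzyme that methylates histone H3 on lysine 79, a mark found along the bodies of transcribed genes. Wnt1-cre2 is active in the dorsal neural tube and in the neural crest, from which the neurons and glia of the dorsal root ganglia arise. Dorsal progenitors of the neural tube express ZIC, PAX and MSX transcription factors, divide next to the ventricle, and then leave the cell cycle to become dorsal interneurons. In RNA of whole tissue, fewer cells of a type and less RNA per cell cannot be told apart.

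The embryos of litter 1 had between 42802824 and 68928443 counts on genes, of which 19275 genes passed the expression filter. Embryos of a group differed beyond sampling noise in each of the 6 pairs (chi-square per gene from 9.73 to 23.8), and each embryo is 1 replicate. The genotype labels were separated on the second axis of variation and not on the first. Over the 500 most variable genes the first principal component held 38.7% of the variance and placed controls 4 and 5 and *Dot1l*-cKO 3 on one side, against control 9 and *Dot1l*-cKO 2 and 7. The second component, with 22.9% of the variance, placed controls 4, 5 and 9 at 4.67, 7.44 and 13.6 and *Dot1l*-cKO 2, 3 and 7 at -8.86, -18.5 and 1.63, without overlap. All 6 embryos had *Xist* counts, at 504 CPM or more (counts scaled to a common library size), and Y-linked genes at 0.290 CPM or less. Both *Dot1l*-cKO embryos of litter 2 had high Y-linked and low *Xist* counts, so values of litter 2 also compare embryos that differ in these genes.

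*Dot1l* itself (chromosome 10 from 80755206 to 80795461, GRCm38) was counted at 88.8, 95.6 and 108 CPM in controls 4, 5 and 9 and at 99.1, 112 and 101 CPM in *Dot1l*-cKO 2, 3 and 7. The groups overlapped (log2 fold change 0.10 with a standard error of 0.08, adjusted p = 0.630). Counts over the whole gene therefore do not check the genotype, and the deleted exons alone were not analysed here, so embryos are named by their label.

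Across all expressed genes the test ended with few calls and a long list of small shifts. Of the 19275 genes, 12 passed an adjusted p of 0.05, or 0.0623%, with edgeR's quasi-likelihood test and adjustment after Benjamini and Hochberg. The embryos labelled *Dot1l*-cKO were higher for 1 of these genes (0.00519% of those tested) and lower for 11 (0.0571%). At an unadjusted p under 0.05 there were 1432 higher and 1283 lower genes (7.43% and 6.66%), and the 3 embryos of each group did not overlap for 1879 higher and 1742 lower genes (9.75% and 9.04%). Log2 fold changes had a median of 0.01, and 90% of them lay between -0.48 and 0.54. Differences above 0.5 in size at an unadjusted p under 0.05 numbered 496 higher and 350 lower genes.

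**Figure D1:**
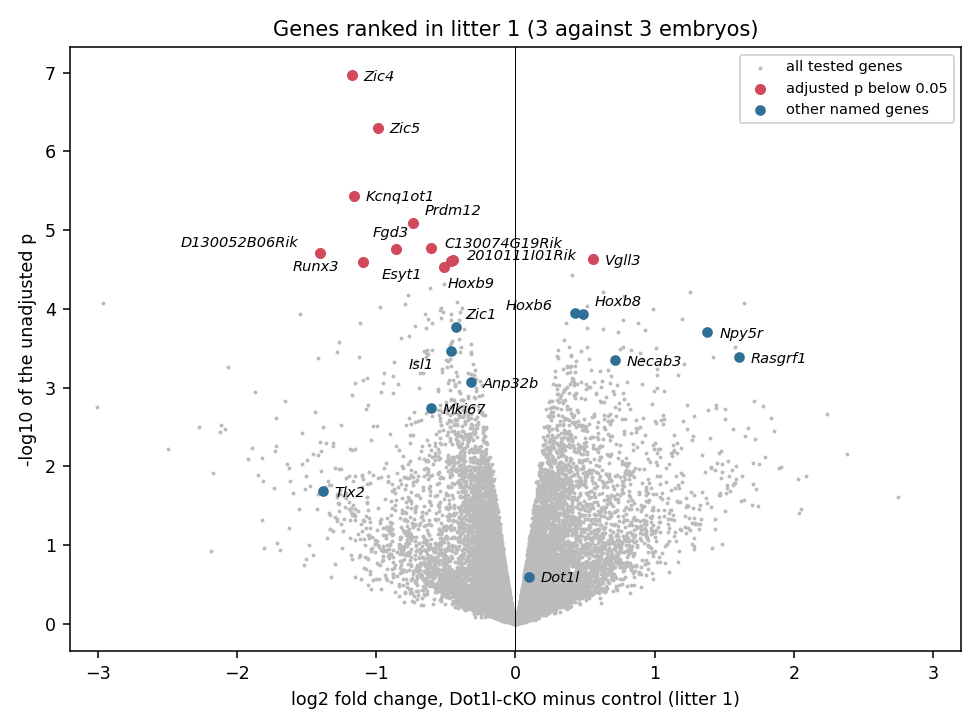
All 19275 tested genes of litter 1, with the log2 fold change of embryos labelled *Dot1l*-cKO against controls on the horizontal axis and -log10 of the unadjusted p on the vertical axis. The 12 genes with an adjusted p below 0.05 are red and other genes named in the text are blue, and 11 of the 12 red points lie left of 0.

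The smallest p-values belonged to a pair of zinc finger genes of dorsal progenitors. *Zic4* (chromosome 9 from 91362413 to 91389348) was at 75.2, 81.8 and 78.6 CPM in controls 4, 5 and 9 and at 31.0, 39.8 and 33.5 CPM in *Dot1l*-cKO 2, 3 and 7. All 3 embryos labelled *Dot1l*-cKO were far below the lowest control, and *Zic4* fell by 1.17 on the log2 scale (standard error 0.09, adjusted p = 0.00205). *Zic5* (chromosome 14 from 122456795 to 122465677), its paralog beside *Zic2*, was at 17.2, 18.0 and 18.3 CPM in controls and 8.64, 9.55 and 8.84 CPM in littermates labelled *Dot1l*-cKO. The controls lay within about 1 CPM of each other, and *Zic5* fell by 0.99 (standard error 0.09, adjusted p = 0.00480). *Zic4* shares bases with *Zic1* on the opposite strand, and without a stated strand setting reads of the shared bases cannot be assigned, whereas *Zic5* overlaps no annotated gene. In litter 2, both genes also passed the threshold, with a log2 fold change of -0.60 for *Zic4* (adjusted p = 0.0395) and -0.65 for *Zic5* (adjusted p = 0.0475). Neither difference between the litters passed the interaction test (unadjusted p = 8.2e-04 and 0.0450, adjusted p = 0.301 and 0.613). *Zic4* kept its call with each embryo left out in turn, while *Zic5* lost it without control 9 or without *Dot1l*-cKO 2.

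Among the 12, *Prdm12* and *Runx3* belong to the list of dorsal root ganglion neuron genes described below. *Prdm12*, a transcriptional regulator of nociceptors that also marks the progenitors of V1 interneurons, was at 66.6, 68.0 and 74.9 CPM in controls and 41.6, 47.1 and 37.0 CPM in littermates labelled *Dot1l*-cKO, without overlap. It fell by 0.74 (standard error 0.09, adjusted p = 0.0387). *Runx3*, needed by proprioceptive sensory neurons, was at 13.1, 14.4 and 18.1 CPM in controls against 7.27, 8.19 and 5.94 CPM, again without overlap, and fell by 1.09 (standard error 0.15, adjusted p = 0.0440). Relative to their mean, the 3 controls of *Runx3* were spread more widely than those of *Prdm12*, with control 9 highest for both. In litter 2 the log2 fold change was 0.02 for *Prdm12* and -0.11 for *Runx3* (adjusted p = 0.952 and 0.817). Their difference between litters had an unadjusted p of 1.6e-04 and 0.00139, and an adjusted p of 0.198 and 0.341. Both calls were lost without control 4, control 9 or *Dot1l*-cKO 2. Each of these genes overlaps an unnamed gene model on the other strand.

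The remaining decreased genes were of varied kinds, and those with another sign in litter 2 are named below. *Kcnq1ot1* is the long non-coding RNA of an imprinted domain and runs antisense to *Kcnq1*, from whose reads it cannot be told apart without a stated strand setting. It was at 30.6, 22.6 and 28.8 CPM in controls and 10.8, 13.8 and 12.2 CPM in littermates labelled *Dot1l*-cKO, and fell by 1.16 (standard error 0.13, adjusted p = 0.0234). *Fgd3*, a guanine nucleotide exchange factor, was at 51.9, 50.1 and 62.2 CPM against 25.5, 33.6 and 31.6 CPM, and fell by 0.86 (standard error 0.11, adjusted p = 0.0440). *Hoxb9*, a homeobox gene of the thoracic and lumbar cord, was at 515, 539 and 509 CPM against 378, 354 and 403 CPM, and fell by 0.46 (standard error 0.06, adjusted p = 0.0440). The groups were apart for each of the 3 genes, and *Hoxb9* was the most abundant of the 12 in CPM. *Esyt1*, which tethers the endoplasmic reticulum to the plasma membrane, fell by 0.51 (adjusted p = 0.0478), from between 96.6 and 108 CPM to between 68.7 and 79.2 CPM. *2010111I01Rik* fell by 0.44 (adjusted p = 0.0440), in a locus of many overlapping models that include *Fancc*. The sparsely described genes *C130074G19Rik* and *D130052B06Rik* fell by 0.61 and 1.40 (adjusted p = 0.0440 for both). *D130052B06Rik* was counted at 9.56, 7.22 and 9.42 CPM in controls and 2.40, 3.79 and 3.74 CPM in littermates labelled *Dot1l*-cKO.

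The single increased gene was *Vgll3* (chromosome 16 from 65815257 to 65866368), a cofactor of TEAD transcription factors. It was at 35.8, 32.1 and 31.0 CPM in controls and 51.9, 47.2 and 46.6 CPM in littermates labelled *Dot1l*-cKO. The groups did not overlap, and *Vgll3* rose by 0.56 (standard error 0.08, adjusted p = 0.0440). In litter 2 its log2 fold change was 0.52 (adjusted p = 0.0475). The call in litter 1 was lost without control 4, 5 or 9 or without *Dot1l*-cKO 2, and by limma-voom.

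**Figure D2:**
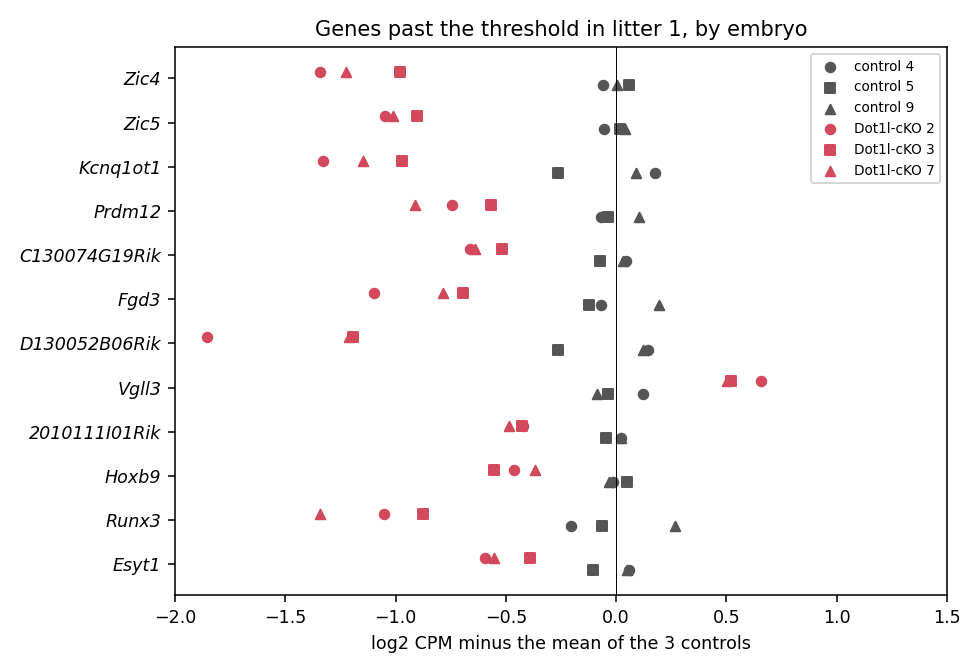
The 12 genes with an adjusted p below 0.05 in litter 1, with log2 CPM minus the mean of the 3 controls on the horizontal axis and 1 point per embryo (controls grey, embryos labelled *Dot1l*-cKO red). The 3 red points lie on 1 side of the 3 grey points for each of the 12 genes, and *Dot1l*-cKO 3 is the closest of the 3 to the controls for each decreased gene but *2010111I01Rik* and *Hoxb9*.

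How firmly these calls stood depended on single embryos. All 12 were kept without *Dot1l*-cKO 3, where 409 genes passed (150 higher and 259 lower). Only *Zic4* was called without control 9 or without *Dot1l*-cKO 2, and only *Zic4* and *Zic5* without control 4. Without control 5, 65 genes passed and *Hoxb9* and *Vgll3* were lost, and without *Dot1l*-cKO 7, 58 genes passed and *2010111I01Rik* and *Esyt1* were lost. DESeq2 called all 12 genes among 565 (269 higher and 296 lower), and limma-voom called 8 of the 12 and no other gene.

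Between an adjusted p of 0.05 and 0.06 lay 37 genes, of which 14 were higher and 23 lower in the embryos labelled *Dot1l*-cKO. The genes with the smallest p in each direction were named, and since the lower ones were already past the threshold, those described here are mainly higher. The nearest was *Lrrn3*, a leucine-rich repeat membrane protein of neurons, at 154, 149 and 146 CPM in controls and 204, 187 and 204 CPM in littermates labelled *Dot1l*-cKO (a log2 fold change of 0.40, adjusted p = 0.0546). Others without overlap were *Pde1c*, a calcium-dependent phosphodiesterase (0.63), *Pik3r5*, a regulatory subunit of a phosphoinositide kinase (0.78), *Elfn2* (0.51), *Camk2a*, a calcium-dependent kinase of synapses (0.48), the secreted phospholipase gene *Pla2g2d* (0.99), *4932441J04Rik* (0.77), *Hoxb6* (0.43) and *Hoxb8* (0.48), each with an adjusted p of 0.0595. In litter 2 all 9 genes also had positive values, from 0.06 for *Pde1c* to 0.73 for *Pla2g2d*. *Nfia*, a transcription factor of the switch from neurons to glia, was lower at the same adjusted p (-0.33).

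Among genes without overlap and with a mean log2 CPM of at least 1, the largest positive values belonged to weakly counted genes. *Rasgrf1*, a Ras exchange factor of neurons, was at 1.01, 1.19 and 1.32 CPM in controls and 5.55, 2.27 and 2.89 CPM in littermates labelled *Dot1l*-cKO (a log2 fold change of 1.60, adjusted p = 0.0823). *Npy5r*, a receptor of neuropeptide Y, was at 1.55, 1.65 and 1.07 CPM against 4.86, 2.76 and 3.43 CPM (1.38, adjusted p = 0.0650). *Dot1l*-cKO 2 was the highest embryo for both, and neither gene overlapped between the groups. Their values in litter 2 were 1.84 and 2.04, and did not pass the threshold there either (adjusted p = 0.142 and 0.0603). The next were *Zpld1* (1.07), *1500015O10Rik* (1.04) and the epidermal keratin gene *Krt1* (1.01). Among lower genes under the same conditions, *D130052B06Rik* was followed by *Tlx2*, a homeobox gene of peripheral neurons, at 4.25, 4.00 and 5.50 CPM in controls against 0.506, 3.64 and 1.19 CPM (-1.38, adjusted p = 0.250). Without *Dot1l*-cKO 3, the embryo nearest to the controls, *Tlx2* had -2.41 and passed the threshold (adjusted p = 0.00898). Its neighbour *Dqx1*, which lies 1006 bases away on the opposite strand, had a value of -1.28 (adjusted p = 0.0803). *2610035F20Rik*, which lies 236 bases from *Zic2*, had -1.19 (adjusted p = 0.172) in litter 1 and -1.20 in litter 2.

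*Anp32b* and *Isl1* were lower without passing the threshold. *Anp32b*, a histone chaperone of dividing cells, was at 138, 139 and 130.4 CPM in controls and 99.6, 116 and 112 CPM in littermates labelled *Dot1l*-cKO (a log2 fold change of -0.32, standard error 0.07, adjusted p = 0.103), and its value in litter 2 was -0.33. *Isl1*, a LIM homeobox gene of dI3 interneurons, motor neurons and dorsal root ganglion neurons, was at 123, 132 and 140.5 CPM against 93.7, 108 and 85.3 CPM (-0.46, standard error 0.09, adjusted p = 0.0803). Neither gene overlapped between the groups. Unlike *Anp32b*, *Isl1* was level in litter 2 (log2 fold change -0.00), and the difference between litters had an unadjusted p of 0.00374 and an adjusted p of 0.389. Of the 4 markers named for this comparison, *Zic4* and *Zic5* thus passed and *Anp32b* and *Isl1* did not. *Anp32b* and *Isl1* were each past the threshold in 5 of 16 alternatives, of which 1 of the 6 that left out an embryo. That was the fit without *Dot1l*-cKO 3, with -0.36 for *Anp32b* (adjusted p = 0.0342) and -0.56 for *Isl1* (adjusted p = 0.0121), and over all alternatives their adjusted p ranged up to 0.347 and 0.314.

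Gene lists were described by counts and medians, with no test of a list, beside the 48.3% of all tested genes with a negative and 51.7% with a positive log2 fold change. Calls of list members come from edgeR's test with the expression filter. Over all genes, the shares called higher and lower were 1.68% and 1.85% with DESeq2, 0.228% and 0.462% with a GC correction, 0.130% and 0.208% with the robust form of edgeR's test, 0.245% and 0.352% with the spread of all 10 embryos, and 0.757% and 1.31% without *Dot1l*-cKO 3. Without any filter, where 2.03% of all genes were called higher and 1.75% lower, edgeR called more list members, as with 8 S phase, 14 G2/M phase, 8 dorsal progenitor, 11 dorsal root ganglion and 8 endothelial genes lower and 14 synapse genes higher. Of 21 dorsal progenitor genes, 16 had a negative value and 2 passed the threshold, *Zic4* and *Zic5*, against 4 with DESeq2 or a GC correction. The median was -0.24, and 7 were lower and 0 higher at an unadjusted p under 0.05, beside 6.66% and 7.43% of all genes. *Zic1*, the most abundant ZIC gene in CPM, was at 369.9, 367 and 338 CPM in controls and 269.8, 288 and 240.1 CPM in littermates labelled *Dot1l*-cKO (-0.43, adjusted p = 0.0635). *Zic2* was at 50.0, 47.8 and 44.6 CPM against 36.3, 40.6 and 30.9 CPM (-0.40, adjusted p = 0.130). *Gli3*, a transcription factor of Hedgehog signalling that patterns the dorsal cord, was at 41.6, 46.6 and 47.5 CPM against 22.8, 40.7 and 29.5 CPM (-0.55, adjusted p = 0.190). For these 3 genes, and for *Pax3*, a paired-box factor of dorsal progenitors (-0.36, adjusted p = 0.262), the groups did not overlap and *Dot1l*-cKO 3 was the closest to the controls. The BMP receptor gene *Bmpr1b* overlapped (-0.22, adjusted p = 0.510).

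The 3 embryos labelled *Dot1l*-cKO did not share the level of the dorsal progenitor list. Its mean level (log2 of CPM plus 0.5, relative to the mean of the controls) was -0.55 in embryo 2, -0.34 in embryo 7 and -0.00 in embryo 3. Of the 21 genes, 16 lay below all 3 controls in embryo 2, 14 in embryo 7 and 6 in embryo 3, beside 30.4%, 26.7% and 25.0% of all tested genes. In embryo 3 more genes of the list lay above all 3 controls, 9 of 21 beside 29.4% of all genes, than below, against 0 in embryo 2 and 3 in embryo 7. Without embryo 3 the median of the list was -0.39 and 7 of its genes decreased past the threshold, and without embryo 2 it was -0.15 and 1 gene did. General progenitor genes leaned the same way with smaller values, 16 of 21 negative at a median of -0.11, as with the Notch receptor gene *Notch2* (-0.30, adjusted p = 0.188). That median was -0.07 with 13 of 21 negative without embryo 2, and -0.20 with 1 decreased gene past the threshold without embryo 3. The Notch ligand gene *Jag1*, which the study names and the list does not hold, had -0.26 (adjusted p = 0.198). Ventral progenitor genes had a median of 0.06 over 14 genes, and -0.12 without embryo 3, and *Prdm12* was the only one that passed. *Olig2*, which marks motor neuron progenitors and was chosen after its values were seen, was at 4.43, 4.96 and 5.30 CPM in controls and 7.49, 5.62 and 5.96 CPM in littermates labelled *Dot1l*-cKO (0.38, adjusted p = 0.274).

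**Figure D3:**
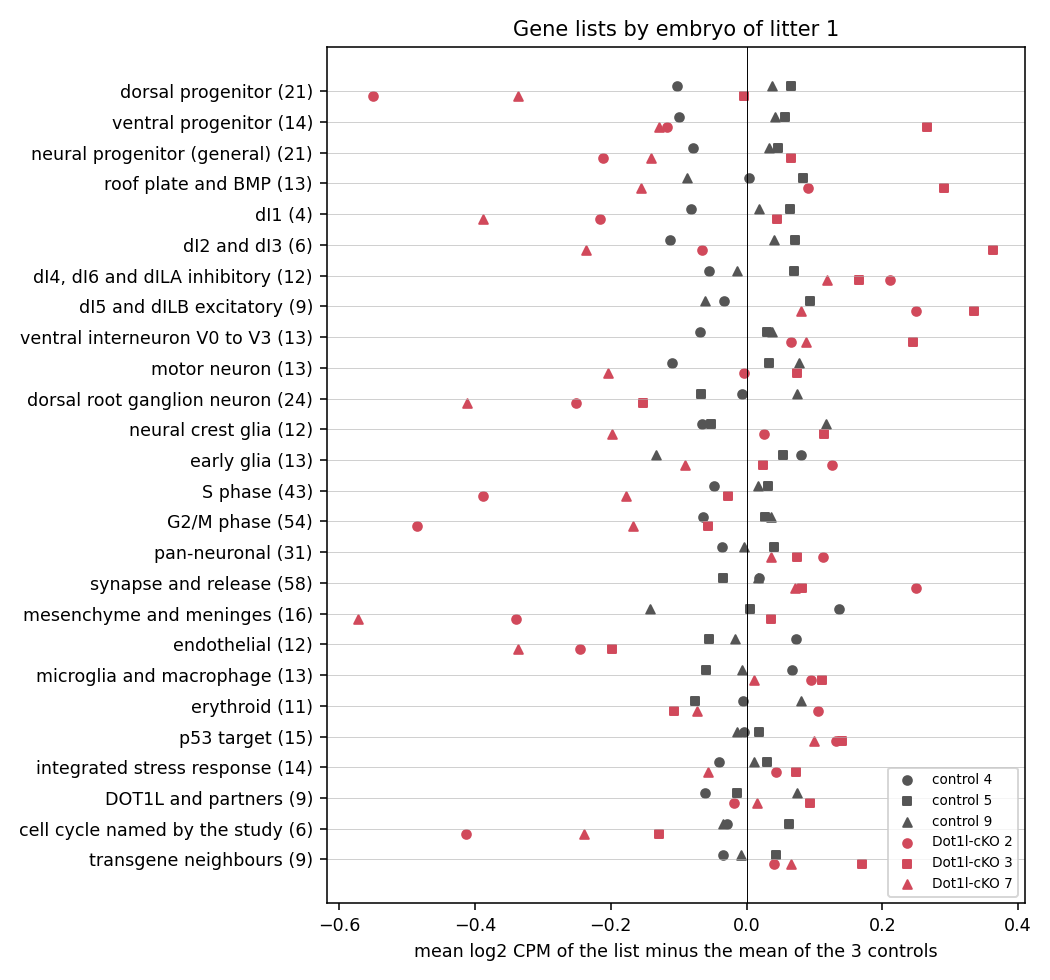
Level of each gene list in each embryo of litter 1, as the mean over tested genes (their number in brackets) of log2 of CPM plus 0.5 minus the mean of the 3 controls, with controls in grey and embryos labelled *Dot1l*-cKO in red. Skeletal muscle, which varied most between embryos of a group, and the sex-linked genes are not drawn. The red points of the S phase, G2/M phase and dorsal progenitor lists run in the same order, with *Dot1l*-cKO 2 lowest and *Dot1l*-cKO 3 next to the controls, whereas the 3 red points of the endothelial and dorsal root ganglion lists all lie below the controls.

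Cell cycle genes were almost uniformly lower by small amounts. Of 43 S phase genes, 41 had a negative value, with a median of -0.23, and of 54 G2/M phase genes, 52, with a median of -0.21. At an unadjusted p under 0.05, 14 of the 43 S phase and 20 of the 54 G2/M phase genes were lower, beside 6.66% of all genes, and 0 of either list was higher, beside 7.43%. By edgeR's test 0 genes of either list passed the adjusted threshold, as by limma-voom, while DESeq2 called 1 S phase and 4 G2/M phase genes lower, beside 1.85% of all genes. *Mki67*, a chromosome coat protein of cycling cells, was at 180.3, 174 and 221 CPM in controls and 97.1, 153 and 127 CPM in littermates labelled *Dot1l*-cKO (-0.61, adjusted p = 0.130). *Cenpf*, a kinetochore protein gene, was at 100.3, 108 and 125 CPM against 58.9, 91.7 and 88.9 CPM (-0.48, adjusted p = 0.195). *Clspn*, an adaptor of the replication checkpoint, was at 24.8, 24.6 and 26.6 CPM against 15.2, 22.6 and 19.9 CPM (-0.39, adjusted p = 0.210), and *Cdc45*, part of the replicative helicase, had -0.42 (adjusted p = 0.142). In each of these 4 genes the groups did not overlap, embryo 2 was lowest and embryo 3 highest among those labelled *Dot1l*-cKO.

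The same order held over the lists. Embryo 2 was below all controls for 39 of 43 S phase and 51 of 54 G2/M phase genes, embryo 7 for 32 and 39, and embryo 3 for 12 and 19, beside 30.4%, 26.7% and 25.0% of all tested genes. In embryo 3 the S phase share of 27.9% was thus near that of all genes. Without embryo 2 the medians were -0.10 for both lists, and without embryo 3 they were -0.31 for S phase and -0.33 for G2/M phase, with 3 and 4 decreased genes. In litter 2 the medians were -0.23 and -0.20, and 0 of the 97 genes of the lists had an unadjusted p under 0.05 for the difference between litters. Of a list of 6 cell cycle genes, which held *E2f1* and 5 genes named by the study, 5 had lower values without overlap (*Anp32b*, *Cdc45*, *Cdc14a* at -0.39, *Ccne1* at -0.36 and *E2f1*), beside 9.04% of all genes, and *Cdkn1a*, an inhibitor of cyclin-dependent kinases, had a higher value with overlap (0.30, adjusted p = 0.223). By edgeR's test and by limma-voom 0 of the 6 passed the threshold, while DESeq2 called 3 lower, the GC correction and the spread of all 10 embryos 1 each, edgeR without a filter 4 and edgeR without embryo 3 called 2. The study named its genes on these samples, so their direction is not independent evidence.

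Promoters of 4 of these cell cycle genes are printed to show the letters that are searched below, as 150 bases before the start in RefSeq's annotation of GRCm38.p6, 5′ to 3′ on the gene's strand. *Mcm6*, a subunit of the replicative helicase, stands for S phase (chr1:128359706-128359855, minus strand), and *Mki67* (chr7:135716380-135716529, minus strand), *Cdk1*, the mitotic kinase (chr10:69352913-69353062, minus strand), and *Top2a*, a topoisomerase that untangles sister chromatids (chr11:99024190-99024339, minus strand), for G2/M phase. Capitals mark E2F letters (TTTGGCGC, TTTCCCGC, TTTGCCGC or TTTCGCGC on either strand) in *Mcm6* and the cell cycle homology letters TTTGAA, on either strand, in the other promoters. In the first run of capitals of *Mcm6* a pair of matches on opposite strands overlap. The *Cdk1* promoter also holds 1 match to the E2F letters, which is left in lower case near its 5′ end, 123 bases from the start.
Mcm6: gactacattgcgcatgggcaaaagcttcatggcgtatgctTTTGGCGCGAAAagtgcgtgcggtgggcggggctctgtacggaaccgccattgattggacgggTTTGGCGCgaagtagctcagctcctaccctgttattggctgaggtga
Mki67: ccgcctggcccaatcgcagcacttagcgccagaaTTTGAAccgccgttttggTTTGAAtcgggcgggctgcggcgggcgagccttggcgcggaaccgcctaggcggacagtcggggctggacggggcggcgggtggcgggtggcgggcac
Cdk1: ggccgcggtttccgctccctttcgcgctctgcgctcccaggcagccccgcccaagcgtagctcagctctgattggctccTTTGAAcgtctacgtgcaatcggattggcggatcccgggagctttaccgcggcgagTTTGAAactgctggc
Top2a: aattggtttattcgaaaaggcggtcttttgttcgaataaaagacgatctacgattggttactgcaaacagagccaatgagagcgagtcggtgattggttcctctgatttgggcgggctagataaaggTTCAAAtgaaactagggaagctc

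Within 250 bases before the start, the E2F letters were in 9 of 31 S phase promoters (29.0%) and 3 of 47 G2/M promoters (6.38%), beside 2.16% of all 27025 promoters and 3.54% of those of tested genes. TTTGAA was in 20 of 47 G2/M promoters (42.6%) and 6 of 31 S phase promoters (19.4%), beside 18.3% of all and 13.2% of those of tested genes. Promoters of 31 of the 43 S phase and 47 of the 54 G2/M phase genes were matched. Letters in a window are a description and not a bound site. Of the printed genes, *Mcm6* was at 98.6, 96.0 and 97.5 CPM in controls and 73.4, 88.7 and 87.5 CPM in littermates labelled *Dot1l*-cKO (a log2 fold change of -0.23, adjusted p = 0.216), without overlap. *Cdk1* (-0.27, adjusted p = 0.279) and *Top2a* (-0.36, adjusted p = 0.282) overlapped between the groups. *Mcm6*, *Cdk1* and *Top2a* were picked for their letters, after their values were seen.

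*E2f1*, the S phase transcription factor at which the strain name places the transgene (chromosome 2 from 154559407 to 154569892), was at 21.9, 24.2 and 23.5 CPM in controls and 14.4, 19.6 and 19.5 CPM in littermates labelled *Dot1l*-cKO (a log2 fold change of -0.38, adjusted p = 0.198). *Necab3*, whose 5′ end lies 517 bases from the 3′ end of *E2f1* on the same strand, was at 8.84, 9.20 and 9.71 CPM against 11.8, 17.5 and 16.4 CPM (0.72, adjusted p = 0.0823), and in litter 2 had 1.34 (adjusted p = 0.00226). *Cbfa2t2*, on the far side of *Necab3*, was at 93.6, 95.9 and 99.1 CPM against 115, 127 and 129.9 CPM (0.36, adjusted p = 0.0597), with 0.57 in litter 2 (adjusted p = 0.00486). The groups were apart for all 3 genes, with *E2f1* lower and *Necab3* and *Cbfa2t2* higher. Of the 9 tested genes of the region, 6 were positive and 3 negative. Without overlap, 2 were higher and 2 lower, beside 9.75% and 9.04% of all genes. Over 9 tested genes of the region the median was 0.03, between -0.020 without control 9 and 0.14 without embryo 7. None of the 9 passed the threshold by edgeR's test. At an unadjusted p under 0.05, 2 were higher and 1 lower, beside 7.43% and 6.66% of all genes. DESeq2, the GC correction and the spread of all 10 embryos each called 2 higher. The robust form of edgeR's test, library size only and the fit without embryo 3 each called 1 higher. The part of the insertion in the cell cycle values was not tested.

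Genes of synapses and transmitter release were mostly higher. Of 58, 48 had a positive value, with a median of 0.13, and 22 were higher and 2 lower at an unadjusted p under 0.05, beside 7.43% and 6.66% of all genes. Without embryo 2 the median was 0.075 and 43 were positive. By edgeR's test 0 passed the adjusted threshold, as by limma-voom, while DESeq2 called 3 higher, beside 1.68% of all genes, and without embryo 3 edgeR called 4 higher, beside 0.757%. *Syt1*, the calcium sensor of vesicle release, was at 136, 129.8 and 138 CPM in controls and 178, 156 and 162 CPM in littermates labelled *Dot1l*-cKO (0.29, adjusted p = 0.103). *Glra2*, a glycine receptor subunit, was at 57.2, 54.6 and 48.0 CPM against 81.1, 61.7 and 69.4 CPM (0.41, adjusted p = 0.135), and *Dlg2*, a postsynaptic scaffold, had 0.38 (adjusted p = 0.153). Embryo 2 was highest and none of these 3 genes overlapped. *Nrxn3*, a presynaptic adhesion molecule, was lower without overlap (-0.21, adjusted p = 0.144). Above all 3 controls were 47 of the 58 genes in embryo 2, 29 in embryo 7 and 22 in embryo 3, beside 31.7%, 27.2% and 29.4% of all genes. In litter 2 the median was 0.02, and 8 of the 58 genes (1 of them with the lower value in litter 1) had an unadjusted p under 0.05 for the difference between litters, beside 8.05% of all genes.

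Pan-neuronal genes were mixed, with 19 of 31 positive and a median of 0.07. At an unadjusted p under 0.05, 10 were higher and 4 lower, beside 7.43% and 6.66% of all genes. None passed the adjusted threshold by edgeR's test, and DESeq2 called 3 higher and 3 lower. *Thy1*, a surface glycoprotein of maturing neurons, was at 1.87, 2.05 and 1.61 CPM in controls and 3.90, 2.63 and 2.85 CPM in littermates labelled *Dot1l*-cKO (0.77, adjusted p = 0.138), and *Celf4*, an RNA-binding protein, had 0.32 (adjusted p = 0.172). *Ebf1*, a transcription factor of newborn neurons, was at 292, 313 and 299.9 CPM against 257, 249 and 251 CPM (-0.26, adjusted p = 0.103). The neurofilament gene *Nefl* was lower too, at 976, 964 and 975 CPM against 875, 797 and 839 CPM (-0.22, adjusted p = 0.154).

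Genes of the dI4 to dI6 interneuron classes, with their late-born dIL groups, were mostly positive. Of 12 genes of dI4, dI6 and dILA inhibitory neurons, 11 were positive, with a median of 0.16. *Gbx1*, a homeobox gene of these neurons, was at 34.6, 34.3 and 31.3 CPM in controls and 50.5, 40.3 and 48.1 CPM in littermates labelled *Dot1l*-cKO (0.47, adjusted p = 0.0803), with 0.55 in litter 2. The GABA-synthesizing enzyme gene *Gad2* (0.19, adjusted p = 0.233) and *Lbx1*, a selector of these fates (0.17, adjusted p = 0.351), had positive values without overlap. Of 9 genes of dI5 and dILB excitatory neurons, 7 were positive, with a median of 0.21 and 0.48 in litter 2. *Phox2a* (0.51), *Tlx1* (0.57) and *Cbln2* (0.21) had adjusted p-values from 0.214 to 0.243. *Lmx1b*, a LIM homeobox gene that these neurons require, overlapped in litter 1 (0.20, adjusted p = 0.270) and had 0.60 in litter 2 (adjusted p = 0.0198), a difference with an unadjusted p of 0.00368 and an adjusted p of 0.389. By edgeR's test and by limma-voom 0 genes of the classes dI4 to dI6 passed. DESeq2 called 1 higher gene in each of these lists. The robust form of edgeR's test, the spread of all 10 embryos and the fit without embryo 3 each gave 1 higher inhibitory gene, edgeR without a filter 1 inhibitory and 2 excitatory genes, and 8 of the 21 genes were higher at an unadjusted p under 0.05, beside 7.43% of all genes.

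List medians of the dI1 to dI3 classes and of the ventral classes lay between -0.17 and 0.15. All 4 dI1 genes were negative, with a median of -0.17 (-0.29 without embryo 3, where 1 gene passed the threshold), led by *Lhx2*, at 8.26, 8.71 and 8.03 CPM in controls and 6.00, 7.57 and 5.30 CPM in littermates labelled *Dot1l*-cKO (-0.41, adjusted p = 0.226). *Lhx9*, its partner in dI1 neurons, overlapped (-0.09, adjusted p = 0.790). Genes of dI2 and dI3 neurons had a median of 0.13 over 6 genes with *Isl1* the lowest. The sign of that median did not hold, at -0.095 without embryo 3 and -0.012 with a correction for GC content, and 4 of the 6 genes were negative without embryo 3. Of 13 genes of V0 to V3 neurons, 10 were positive, with a median of 0.15 and values from -0.09 to 0.58. This lean was close to that of the dI4, dI6 and dILA list (11 of 12, median 0.16), and the V0 to V3 median was 0.04 in litter 2. Motor neuron genes had a median of 0.00 over 13 (-0.07 without embryo 3, where *Isl1* passed the threshold). Roof plate and BMP genes had a median of 0.10 over 13, which was 0.03 without control 9, 0.046 without embryo 2 and 0.060 without embryo 3, and *Id1*, a BMP target picked after its values were seen, was at 12.9, 15.1 and 13.6 CPM against 20.7, 33.7 and 13.6 CPM. Its groups overlapped in embryo 7 (0.71, adjusted p = 0.243), and its value ranged from 0.31 to 0.97 over the alternatives.

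Genes of dorsal root ganglion neurons, outside the cord, were mostly lower. Of 24 genes, 15 were negative with a median of -0.17, and 12 were lower and 1 higher at an unadjusted p under 0.05, beside 6.66% and 7.43% of all genes. *Prdm12* and *Runx3* passed the threshold, while 9 lower genes and 1 higher gene passed without embryo 3, and 0 without control 4, control 9 or embryo 2. With all 6 embryos DESeq2 called 9 lower and 1 higher (1.85% and 1.68% of all genes), the GC correction and the spread of all 10 embryos 8 lower and 1 higher each, the robust form of edgeR's test 4 lower and limma-voom 1 lower (0.0415% of all genes). *Pou4f3*, a POU factor of sensory neurons, was at 11.6, 12.0 and 13.3 CPM in controls and 7.40, 8.63 and 6.43 CPM in littermates labelled *Dot1l*-cKO (-0.72, adjusted p = 0.0635). *Scn10a*, a sodium channel gene of nociceptors that was picked after its values were seen, was at 74.6, 53.5 and 82.9 CPM against 42.7, 49.1 and 39.9 CPM (-0.68, adjusted p = 0.0940). Embryo 7 was lowest for both genes, and the groups did not overlap. Picked in the same way, *Six4* of early sensory neurons had -0.94 (adjusted p = 0.0945). The single higher gene was *Tac1*, the precursor of substance P, which dorsal horn neurons also express, at 16.8, 13.1 and 11.1 CPM against 32.1, 20.5 and 24.3 CPM (0.91, adjusted p = 0.0823), whereas *Pou4f1*, the POU factor shared with dorsal interneurons, had only -0.15.

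The ganglion values differed in direction between the litters. In litter 2 the median of the list was 0.13 and 18 of 24 genes were positive. For 16 of the 24 genes the difference between litters had an unadjusted p under 0.05, each with the lower value in litter 1, beside 8.05% of all genes. After adjustment 0 of the 24 passed edgeR's interaction test. How much ganglion was left on each cord is not recorded in the labels, and its part in the values of *Prdm12*, *Runx3* and *Isl1* was not tested. Neural crest glia, which share this tissue, had a median of -0.01 over 12 genes in litter 1, between -0.10 without embryo 3 and 0.11 without embryo 7. In litter 2 it was 0.49, and 6 of the 12 genes had an unadjusted p under 0.05 for the difference between litters, each with the lower value in litter 1.

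Endothelial and mesenchymal genes mostly had negative values, and microglia genes did not. Of 12 endothelial genes, 10 were negative with a median of -0.34, and 8 were lower without overlap, beside 9.04% of all genes. *Kdr*, a receptor of vascular endothelial growth factor, was at 107, 82.2 and 100.3 CPM in controls and 68.6, 70.7 and 69.5 CPM in littermates labelled *Dot1l*-cKO (-0.47, adjusted p = 0.0803). *Cdh5*, the cadherin of vessel walls, was at 79.0, 75.2 and 79.8 CPM against 59.8, 64.9 and 53.9 CPM (-0.39, adjusted p = 0.0803). *Pecam1* (-0.34, adjusted p = 0.0940) and *Flt1* (-0.45, adjusted p = 0.135) were lower too. By edgeR's test 0 endothelial genes passed the adjusted threshold, as by limma-voom, with 8 lower at an unadjusted p under 0.05 (6.66% of all genes), while DESeq2 called 7 lower, beside 1.85% of all genes, and the GC correction 3, beside 0.462%. The robust form of edgeR's test called 2 (0.208% of all genes), as did the fit without control 5 (0.323%), and the fit without embryo 3 called 4 (1.31%). In litter 2 their median was 0.14, and 10 of the 12 genes had an unadjusted p under 0.05 for the difference between litters, each with the lower value in litter 1, beside 8.05% of all genes. After adjustment 0 of the 12 passed (lowest adjusted p = 0.356).

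All 16 genes of mesenchyme and meninges were negative, with a median of -0.28, and -0.13 without embryo 7 and -0.49 without embryo 3, where 4 passed the threshold, against 0 with all 6 embryos and 3 with DESeq2. *Col3a1*, a fibrillar collagen gene, was at 989.8, 742 and 692 CPM in controls and 549, 702 and 494 CPM in littermates labelled *Dot1l*-cKO, with embryo 3 inside the control range (-0.47, adjusted p = 0.198). *Postn* (-0.30) and *Pdgfrb* (-0.31), a matrix protein and a receptor of perivascular cells, were lower without overlap (adjusted p = 0.153 and 0.150). In litter 2 the median was 0.23, and 11 of the 16 genes had an unadjusted p under 0.05 for the difference, beside 8.05% of all genes. Skeletal muscle genes differed most between embryos of a group. *Actc1*, the cardiac and embryonic muscle actin gene, was at 32.5, 16.7 and 1.22 CPM in controls and 1.69, 21.9 and 1.14 CPM in littermates labelled *Dot1l*-cKO. Its value was -1.04 (adjusted p = 0.719), with -3.57 without embryo 3 (adjusted p = 0.0818) and -0.12 without control 4 (adjusted p = 0.987). The median over 10 tested muscle genes was -0.70, between -2.42 without embryo 3 and 0.093 without control 4. The levels of *Actc1* that were high, in controls 4 and 5 and in embryo 3, were those of the same 3 embryos that the first principal component placed together. Of 13 microglia and macrophage genes 10 were positive, with a median of 0.13. Erythroid genes had a median of -0.09 over 11, between -0.17 without embryo 2 and -0.04 without embryo 3, and 0.46 in litter 2.

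Stress programs had small medians. Of 15 p53 targets, 12 were positive with a median of 0.13, as with *Ak1* (0.28, adjusted p = 0.195). Genes of the integrated stress response had a median of 0.00 over 14 (-0.04 without embryo 3), between *Ddit4*, an inhibitor of TOR signalling (0.58, adjusted p = 0.173), and the cystine transporter gene *Slc7a11* (-0.38, adjusted p = 0.136). Early glia genes had a median of 0.07 over 13 (0.036 without control 4), with *Fgfbp3* higher (0.24, adjusted p = 0.142) and *Nfia* lower. DESeq2 called 1 gene of this list higher and 1 lower, and 1 was called lower without embryo 3, with library size only (0.202% of all genes), with a GC correction, with the robust form of edgeR's test and with the spread of all 10 embryos. DOT1L and its partners had 0.04 over 9 (0.01 without embryo 3 and 0.095 without control 9), with *Mllt10* at -0.17 and *Mllt3* at 0.13 (adjusted p = 0.303 and 0.342).

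Hox genes, which give cells their position along the body axis, split within a cluster. Of 38 tested Hox genes, 22 were negative and *Hoxb9* was the only one that passed. The next gene, *Hoxb8*, was at 438, 446 and 395 CPM in controls and 651, 599 and 537 CPM in littermates labelled *Dot1l*-cKO, higher without overlap (adjusted p = 0.0595). *Hoxb7*, which follows it, was at 57.0, 61.5 and 52.8 CPM against 57.9, 58.4 and 55.4 CPM and overlapped (0.00, adjusted p = 0.988). *Hoxb6* was at 83.0, 94.2 and 92.8 CPM against 123, 128 and 112 CPM, again apart. Further along, *Hoxb5* had a higher value (0.40, adjusted p = 0.0897) and *Hoxb4* a lower one (-0.44, adjusted p = 0.103). In litter 2 the values were -0.38 for *Hoxb9*, 0.50 for *Hoxb8*, -0.13 for *Hoxb7*, 0.31 for *Hoxb6*, 0.46 for *Hoxb5* and -0.26 for *Hoxb4*, with the sign of litter 1 for each but *Hoxb7*. *Hoxb6* overlaps an antisense transcript, *Hoxb5os*. *Hoxa7* of another cluster was higher as well (0.35, adjusted p = 0.152). *Hoxb4*, *Hoxb5*, *Hoxb7* and *Hoxa7* were picked after their values were seen.

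**Figure D4:**
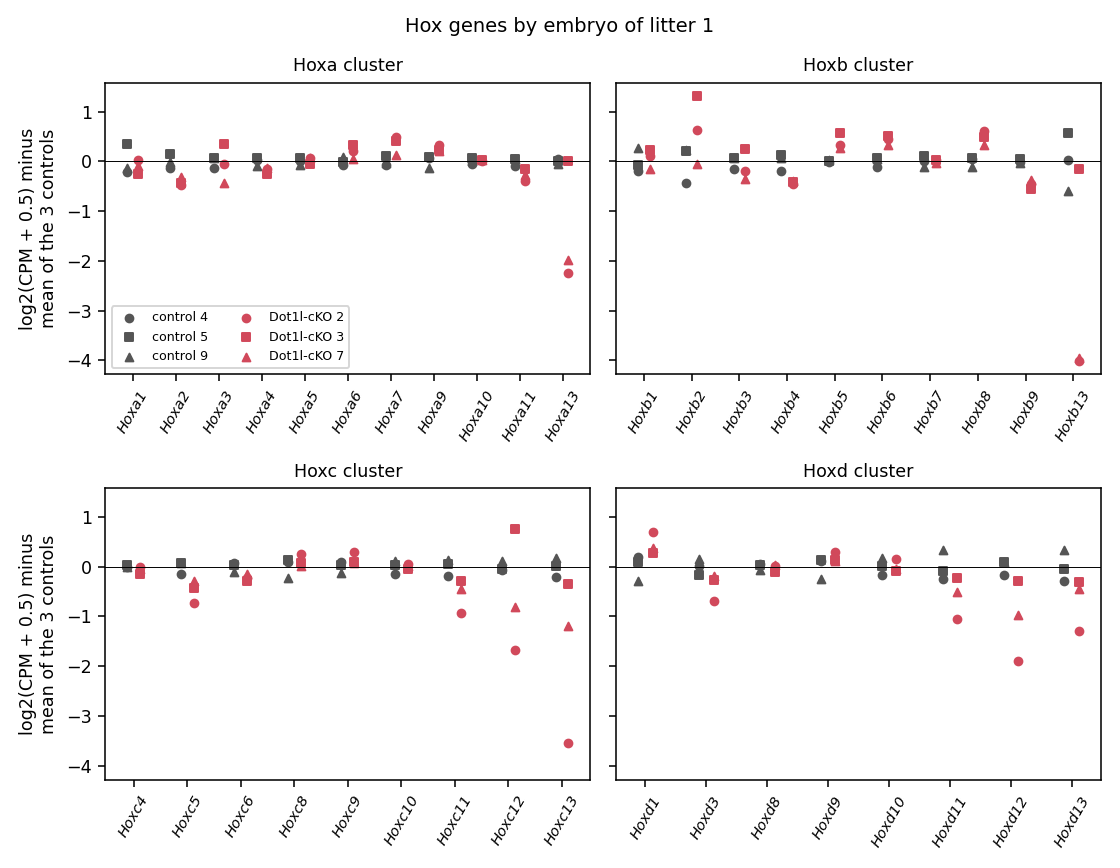
The 38 tested Hox genes of litter 1 by cluster, with log2 of CPM plus 0.5 minus the mean of the 3 controls on the vertical axis and 1 point per embryo, controls in grey and embryos labelled *Dot1l*-cKO in red. *Hoxb8*, *Hoxb6* and *Hoxb5* lie above 0 and *Hoxb9* below 0 in all 3 red embryos, and at the posterior end of each cluster *Dot1l*-cKO 2 and 7 lie below *Dot1l*-cKO 3.

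The posterior groups 11 to 13, which mark lumbosacral levels and were picked after their values were seen, had a negative value in 9 of 9 genes, with a median of -0.75 and a range from -1.81 to -0.24. By edgeR's test 0 of them passed the adjusted threshold (lowest adjusted p = 0.157), 6 were lower at an unadjusted p under 0.05 (6.66% of all genes), and DESeq2 called 1 and limma-voom 0. *Hoxc13* was at 35.0, 40.8 and 45.6 CPM in controls and 3.00, 31.6 and 17.2 CPM in littermates labelled *Dot1l*-cKO (-1.23, adjusted p = 0.347). *Hoxb13* was at 9.63, 14.4 and 6.11 CPM against 0.118, 8.52 and 0.144 CPM, and *Hoxa13* at 2.17, 2.12 and 1.99 CPM against 0.0506, 2.10 and 0.158 CPM. *Hoxb13* had -1.81 and *Hoxa13* -1.48 (adjusted p = 0.471 and 0.457). Without embryo 3 they had -6.22 and -4.25 (adjusted p = 1.8e-04 and 0.00116), and without embryo 2 -1.23 and -0.93 (adjusted p = 0.784 and 0.777). Embryos 2 and 7 were below all controls for 9 of the 9 genes and embryo 3 for 5, beside 30.4%, 26.7% and 25.0% of all genes in embryos 2, 7 and 3, with *Hoxc12* above all controls in embryo 3. *Hoxc11* (-0.54, adjusted p = 0.157) and *Hoxd13* (-0.75, adjusted p = 0.284) did not overlap between the groups. Without embryo 3 the median was -1.21 and 5 of the genes decreased past the threshold, and without embryo 2 it was -0.46, with 0 past the threshold and 1 positive. In litter 2, 8 of the 9 genes had the sign of litter 1, with a lowest unadjusted interaction p of 0.241. Lower values without overlap, in 5 of these 9 genes, were not confined to groups 11 to 13. Among all 38 Hox genes there were 12 such genes, beside 9.04% of all tested genes. *Hoxc5* (-0.51), *Hoxa2* (-0.43) and *Hoxd3* (-0.39), picked after their values were seen, were among them. *Hoxa10*, *Hoxc10* and *Hoxd10* overlapped (0.02, 0.00 and -0.00). The labels do not give the exact level at which each cord was cut, and its part in the Hox values was not tested.

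Litter 2, whose embryos did not enter the test of litter 1, gave 42 higher and 10 lower genes among 20446 (0.205% and 0.0489%) in the fit of all 10 embryos. Of the 1432 genes higher in litter 1 at an unadjusted p under 0.05, 1160 (81.0%) were also positive in litter 2, beside 59.1% of all genes positive in litter 1. Of the 1283 lower genes, 901 (70.2%) were also negative, beside 64.8%. Of the 12 called genes, 8 had the sign of litter 1, and *Prdm12*, *Fgd3*, *C130074G19Rik* and *D130052B06Rik* did not (0.02, 0.05, 0.09 and 0.41). In litter 2, controls 5 and 7 had 42.0 and 35.0 CPM of *Prdm12* and 32.6 and 29.4 CPM of *Fgd3*. They had 15.9 and 14.2 CPM of *C130074G19Rik* and 2.23 and 2.00 CPM of *D130052B06Rik*. For each of these genes both values lay below all 3 controls of litter 1, near its embryos labelled *Dot1l*-cKO. The difference between litters had an unadjusted p under 0.05 for 10 of the 12, each with a more negative value in litter 1, though these genes were chosen by their values in litter 1. After adjustment 0 of the 12 passed edgeR's interaction test, with a lowest adjusted p of 0.189. Over all genes 2 passed it (0.00978%), and 1646 had an unadjusted p under 0.05 (8.05%).

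**Figure D5:**
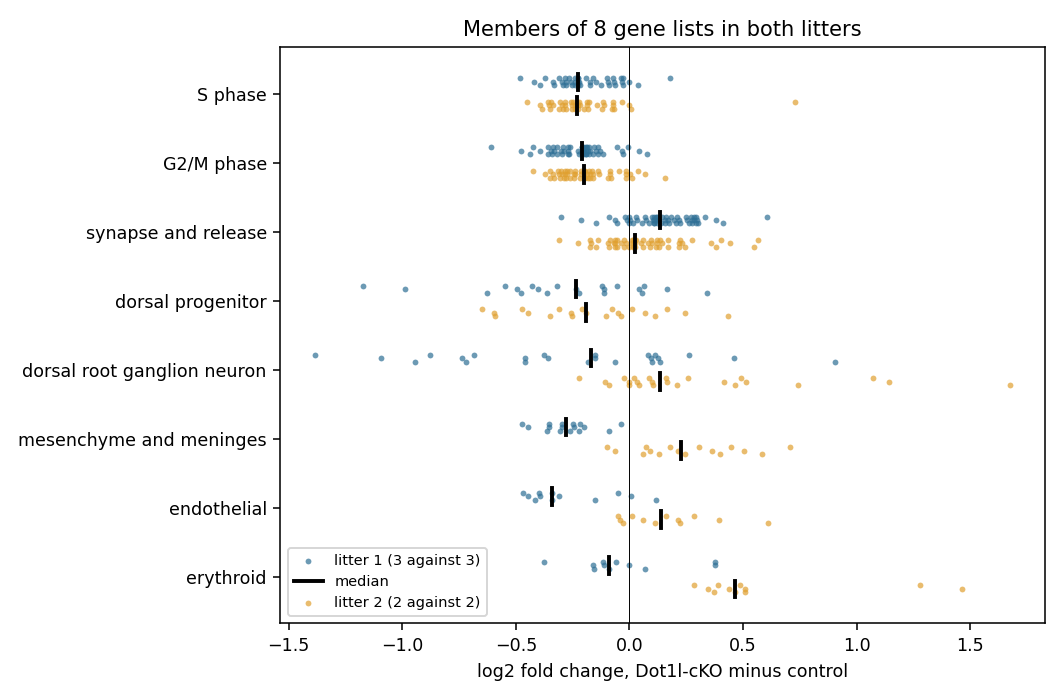
Log2 fold change of each member of 8 gene lists, embryos labelled *Dot1l*-cKO against controls, with litter 1 (3 against 3) in blue and litter 2 (2 against 2) in orange and a black bar at the median. The S phase, G2/M phase and dorsal progenitor medians are negative in both litters, and the mesenchyme, endothelial, erythroid and dorsal root ganglion medians are negative in litter 1 and positive in litter 2.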

How the data were processed

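The deposited table holds raw read counts for 54146 genes, which the authors had not normalized. By the methods and the submitters' processing notes, reads were trimmed with TrimGalore, aligned to mm10 (GRCm38) with STAR and counted with featureCounts in snakePipes. Use of strand in counting is not given in the sources used here. Names and positions matched GENCODE for 54079 identifiers.

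From the counts of the 6 embryos of litter 1, R 4.3.3 with edgeR 4.0.16 (TMM, default expression filter, quasi-likelihood test, Benjamini-Hochberg adjustment at 0.05) gave log2 fold changes. CPM are counts divided by TMM-adjusted library sizes. The standard error is the log2 fold change divided by the square root of F. The difference between litters was an interaction in a fit of 4 groups over 10 embryos. The methods' litter term drops out within 1 litter. DESeq2 1.42.0, limma-voom (limma 3.58.1), other scalings and filters, a GC correction and each embryo left out were alternatives.

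Named genes were those past the threshold, in each direction the 10 without overlap and with the smallest p and the 5 with the largest change (mean log2 CPM of at least 1), up to 4 members of each list by smallest p, genes the study names, and *Zic4*, *Zic5*, *Anp32b*, *Isl1*, *Dot1l*, *E2f1* and *Necab3*. Members and lists were chosen with earlier results of these data known. Lists of 28 kinds share some genes. *Drgx* is counted under its synonym *Prrxl1*. Some genes are not reported here.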

Additional observations from a re-analysis of the deposited data

Results flagged for a closer look

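The change in embryos labelled *Dot1l*-cKO differed between litters past the threshold for *Xist* and *Htr3a*, in edgeR's interaction test with adjustment over 20446 genes. The log2 fold change of *Xist* was -0.39 in litter 1 against -6.85 in litter 2, a difference of 6.46 (adjusted p = 8.3e-09), with both litter 2 embryos labelled *Dot1l*-cKO being those with Y-linked counts. *Htr3a*, a serotonin-gated channel gene, had -0.63 in litter 1 and 1.04 in litter 2, a difference of -1.67 (adjusted p = 0.0227). In litter 1 *Htr3a* was at 7.62, 6.75 and 7.24 CPM in controls 4, 5 and 9 and at 4.66, 5.08 and 4.30 CPM in *Dot1l*-cKO 2, 3 and 7, without overlap. The call of *Xist* held with each of the 10 embryos left out in turn, whereas that of *Htr3a* was lost in 8 of these 10 fits, with an adjusted p of up to 0.191.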

How the results depend on the processing

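The number of calls depended on the setting. Higher and lower genes numbered 18 and 39 with library size only, 685 and 591 without an expression filter, 269 and 296 with DESeq2, 25 and 40 with the robust form of edgeR's test, 44 and 89 with a GC correction, and 50 and 72 with the spread of all 10 embryos. limma-voom gave 0 higher genes and 8 in all. With each embryo left out in turn they ranged from 0 to 150 higher and from 1 to 259 lower. Each setting that kept all 6 embryos shared the 12 genes, except limma-voom (8 shared) and the test with legacy = FALSE (11 shared, without *Esyt1*). With a GC correction the list medians moved to 0.10 for dI4, dI6 and dILA genes and 0.089 for p53 targets. With an embryo left out they ranged from 0.058 to 0.18 for p53 targets, from -0.12 (without *Dot1l*-cKO 3) to 0.16 for ventral progenitors, from -2.42 (without *Dot1l*-cKO 3) to 0.093 (without control 4) for skeletal muscle, and from -0.020 to 0.14 for transgene neighbours. Genes that differed between litters numbered 4 with library size only, 437 without a filter and from 1 to 95 with an embryo left out. *Hoxc12* ranged from -1.21 to 0.17, positive without *Dot1l*-cKO 2. The cause of these shifts was not tested. No paired analysis was possible because embryo numbers only name the embryos and the groups of litter 1 share none. With at least 42802824 counts in each embryo of litter 1, the 3 embryos per group, all of 1 litter, limit the precision.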
